A study of Rattus norvegicus with 20 samples.

Results

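Synapsins, SV2 proteins and the synaptophysin family are proteins of the synaptic vesicle, and 9 of their genes were followed here in rat globular bushy cells at 3 postnatal ages. The genes were Syn1, Syn2, Syn3, Syp, Synpr, Syngr1, Sv2a, Sv2b and Sv2c. This list was drawn up with earlier results of these data known. Its probe sets were then taken by symbol alone, as every probe set whose annotation names exactly 1 gene. That gave 16 probe sets of the 9 genes, out of 20832 probe sets of 14218 genes on the array. The cells came from Sprague Dawley rats, and every animal received cholera toxin B as a retrograde tracer the day before it was killed. Labelled cells of 1 animal were cut out by laser microdissection and pooled, and their RNA was amplified linearly and hybridised to 1 array. The groups were P3, when the calyx of Held has just formed (6 animals), P8, a juvenile stage near hearing onset (9 animals), and P21, when the calyx is mature (5 animals).

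Globular bushy cells sit in the ventral cochlear nucleus and end on the other side of the brainstem in the calyx of Held, a giant terminal that releases glutamate at very high rates. Synapsins are phosphoproteins on the outer face of the vesicle that tether vesicles into a reserve cluster, and they let go when kinases phosphorylate them. Synaptophysin (Syp), synaptoporin (Synpr) and synaptogyrin 1 (Syngr1) span the vesicle membrane 4 times, and synaptophysin binds the fusion protein synaptobrevin. The SV2 proteins are vesicle glycoproteins built like sugar transporters. SV2A is the binding site of the antiseizure drug levetiracetam, and SV2 proteins serve as receptors for botulinum neurotoxin A. The messenger RNA measured here lies mostly in the cell body, while the proteins work in the distant terminal.

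Levels are log2(intensity + 1), so a difference of 1 is close to 2-fold for bright probe sets and understates the change of dim ones. Levels of different probe sets were not read as relative amounts. Differences between genes within an array served only to ask whether they shifted with age. Not all P8 arrays were alike: on replicates 5 to 9 the hybridisation spike-in controls averaged 13.02 ± 0.40 (SD, n = 5), against 8.57 ± 0.35 in P8 replicates 1 to 4 (SD, n = 4). The median intensity of those 5 arrays was 58.9 to 67.5, and it was 23.8 to 32.5 on the remaining 15. The labels give no reason for this. The main comparisons used the 15 arrays of P3, P8 replicates 1 to 4 and P21, with the values of P8 replicates 5 to 9 given apart. Results with all 20 arrays are given beside some of them. Of 13 measured bushy cell markers 12 lay above log2 4 on all 15 arrays, and 8 of 9 astrocyte markers did too. In pooled tissue of this kind fewer cells of a type and less RNA per cell cannot be told apart.

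The genes with a probe set that differed between P21 and P3 (limma, adjusted p under 0.05) were Syn2, Syp, Sv2b and Synpr. Syp was higher at P21, as were some but not all probe sets of Syn2 and Sv2b. Synpr was lower on each of its probe sets. Syn3, Syngr1 and Sv2c were too dim to be tested. The RefSeq promoter windows of Syn2, Syp, Sv2b and Synpr are shown as a description. Each window has 300 bases, most of them before the annotated start and the last ones after it, in assembly GRCr8, 5′ to 3′ on the strand of the gene. Capitals mark GC boxes (GGGCGG, searched on both strands).
Syn2, chr4:149858669-149858968, plus strand: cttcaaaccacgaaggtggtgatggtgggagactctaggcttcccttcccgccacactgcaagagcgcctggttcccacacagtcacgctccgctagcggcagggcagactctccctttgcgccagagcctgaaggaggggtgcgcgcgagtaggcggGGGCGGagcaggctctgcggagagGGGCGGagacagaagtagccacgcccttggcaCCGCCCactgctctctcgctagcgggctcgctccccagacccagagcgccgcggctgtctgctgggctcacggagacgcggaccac
Syp, chrX:17536400-17536699, minus strand: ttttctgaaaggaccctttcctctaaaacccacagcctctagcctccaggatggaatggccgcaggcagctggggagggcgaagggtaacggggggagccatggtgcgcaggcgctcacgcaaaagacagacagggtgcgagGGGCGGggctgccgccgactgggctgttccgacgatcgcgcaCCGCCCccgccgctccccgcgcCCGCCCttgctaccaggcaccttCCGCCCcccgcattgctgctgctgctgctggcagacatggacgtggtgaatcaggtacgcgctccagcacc
Sv2b, chr1:138562209-138562508, minus strand: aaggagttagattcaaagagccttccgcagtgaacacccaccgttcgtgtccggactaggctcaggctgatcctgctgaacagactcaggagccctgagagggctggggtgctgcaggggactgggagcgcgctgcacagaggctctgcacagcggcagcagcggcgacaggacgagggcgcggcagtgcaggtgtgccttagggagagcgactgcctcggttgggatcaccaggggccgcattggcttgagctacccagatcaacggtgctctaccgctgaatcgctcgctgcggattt
Synpr, chr15:14182308-14182607, minus strand: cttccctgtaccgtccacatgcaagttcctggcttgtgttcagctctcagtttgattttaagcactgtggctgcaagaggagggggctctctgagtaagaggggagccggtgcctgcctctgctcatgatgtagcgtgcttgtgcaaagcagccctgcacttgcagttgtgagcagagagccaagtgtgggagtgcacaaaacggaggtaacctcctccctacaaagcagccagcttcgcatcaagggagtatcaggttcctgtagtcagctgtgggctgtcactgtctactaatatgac

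The window of Syp held 4 GC boxes and that of Syn2 held 3. Those of Sv2b and Synpr held 0, and 33.1% of the 33469 rat promoter windows of that table held at least 1. None of the 4 windows held a TATA box (TATAAA, both strands, in 14.2% of all windows) or a cAMP response element (TGACGTCA, the same on both strands, in 1.83%). The element was found once in the window of Syn1. The G and C content was 67.7% for Syn2, 67.0% for Syp, 62.7% for Sv2b and 53.7% for Synpr, against a median of 51.7% over all windows. Windows not printed held 71.0% and 1 GC box for Syn1, 60.0% and 0 for Sv2a, and 71.7% and 2 for Sv2c. Syn1 and Sv2a did not pass in any comparison of the 15 arrays. A link between these windows and the direction of change was not tested. The series holds no measurement of binding or methylation at these windows, and windows were found for 7 of the 9 genes.

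Of the 16 probe sets 12, of 6 genes, lay above log2 4 on at least 5 of the 15 arrays and were tested within the fit over 15650 probe sets. Between P21 and P3, 4 of the 12 were higher, 2 were lower and 6 did not pass (limma, adjusted p under 0.05). Over all 15650 probe sets 39.1% passed in that comparison, 20.1% higher and 19.0% lower. The median difference of the 12 was 0.31, against 0.024 over all probe sets tested. Between P8 and P3, 2 of the 12 were higher, 0 were lower and 10 did not pass. Over all probe sets 15.6% passed there, 7.81% higher and 7.75% lower. Between P21 and P8, 2 were higher, 2 were lower and 8 did not pass, where over all probe sets 16.7% passed, 8.31% higher and 8.42% lower. The members' counts were small, and because dim probe sets were left out they do not describe all 9 genes. These comparisons share arrays and are not independent of each other.

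**Figure D1:**
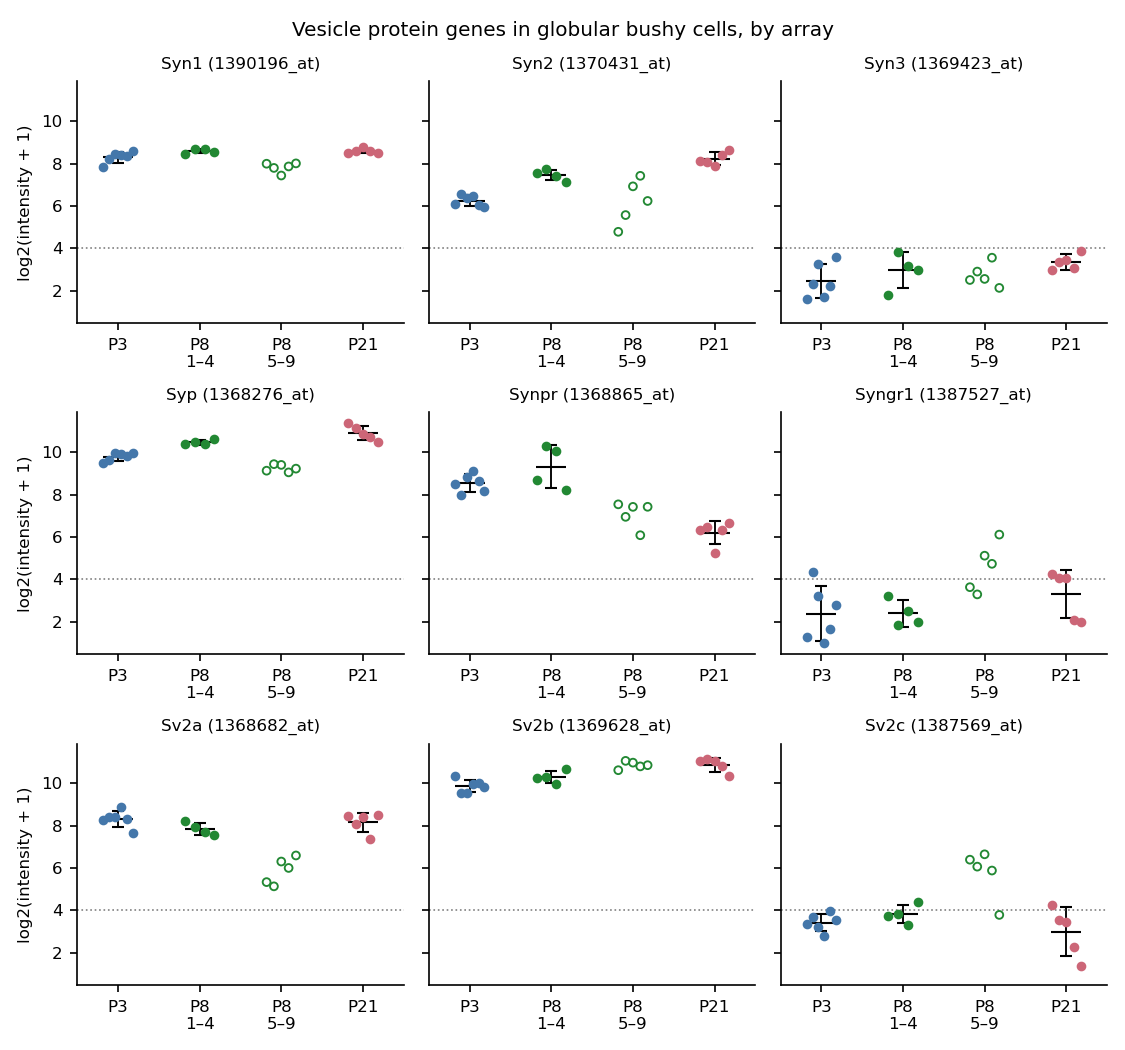
Level of each of the 9 genes, log2(intensity + 1), on every array by age, for the probe set with the highest mean. Points are arrays (1 animal each), bars are mean ± SD, open circles are P8 replicates 5 to 9 and the dotted line is log2 4. Syn2, Syp and Sv2b lie highest at P21, Synpr lies lowest at P21, and Syn3, Syngr1 and Sv2c lie near or under the line at all ages apart from the open circles.

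Synapsin II (Syn2) gave the largest rise among the 9 genes in the P21 and P3 comparison. Its probe set 1370431_at read 6.09, 6.58, 6.39, 6.46, 6.03 and 5.95 on the 6 P3 arrays. It read 7.55, 7.74, 7.40 and 7.14 in P8 replicates 1 to 4, and 8.11, 8.06, 7.89, 8.42 and 8.64 at P21. The 3 ages did not overlap at any point. The mean was 8.22 ± 0.30 at P21 (SD, n = 5), against 6.25 ± 0.26 at P3 (SD, n = 6), a difference of 1.98 ± 0.18 (SE, adjusted p = 7.83e-07), or 3.93-fold. At P8 the mean was 7.46 ± 0.25 (SD, n = 4), higher than at P3 by 1.21 ± 0.19 (SE, adjusted p = 0.00096). P21 lay above P8 by a further 0.77 ± 0.19 (SE, adjusted p = 0.0141). This last step missed the threshold when the 2 ages were fitted alone (adjusted p = 0.0518). P8 replicates 5 to 9 spread widely, at 4.78, 5.57, 6.92, 7.42 and 6.23, and with all 20 arrays the P8 and P3 difference was 0.50 (adjusted p = 0.306).

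The other Syn2 probe sets did not show this rise. Probe set 1382850_at averaged 5.87 ± 0.83 at P21 (SD, n = 5) and 5.41 ± 0.23 at P3 (SD, n = 6), with a difference of 0.45 ± 0.41 (SE, adjusted p = 0.404). Probe set 1369482_a_at averaged 4.95 ± 0.85 at P21 and 5.07 ± 0.39 at P3 (SD), a difference of -0.12 ± 0.37 (SE, adjusted p = 0.825). Over the 15 arrays 1370431_at correlated with them at Pearson r = 0.26 and r = -0.014, across points that share the age groups. The files do not say which transcripts of Syn2 each probe set reads. In P8 replicates 5 to 9, 1382850_at read 7.21 to 7.77 on 4 arrays and 4.59 on replicate 5, so the probe sets of the gene parted there as well.

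Synapsin I (Syn1), the synapsin found at most terminals, did not pass in any comparison. Probe set 1390196_at had a lowest value of 7.83, at P3, and a highest of 8.77, at P21. Its means were 8.30 ± 0.26 at P3, 8.59 ± 0.10 in P8 replicates 1 to 4 and 8.59 ± 0.11 at P21 (SD). The difference between P21 and P3 was 0.29 ± 0.14 (SE, adjusted p = 0.119), and the ages overlapped. P8 replicates 5 to 9 read 7.43 to 8.01, lower than P8 replicates 1 to 4, at 8.47 to 8.70. The dim probe set 1369251_a_at averaged 4.07 ± 0.63 at P21 and 4.20 ± 0.76 at P3 (SD), and did not pass in any comparison.

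Synapsin III (Syn3), known from developing neurons, was not tested: its probe set 1369423_at lay above log2 4 on 0 of the 15 arrays. It read 1.63 to 3.61 at P3, 1.81 to 3.85 in P8 replicates 1 to 4 and 3.00 to 3.90 at P21. These low readings bound the level at this probe set and do not show that the gene was silent.

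Synaptophysin (Syp), the classical marker of synaptic vesicles, read 9.48, 9.62, 9.98, 9.89, 9.81 and 9.95 at P3 on probe set 1368276_at. It read 10.37, 10.48, 10.38 and 10.62 in P8 replicates 1 to 4, and 11.35, 11.12, 10.83, 10.71 and 10.48 at P21. Each of these P8 arrays and each P21 array was above every P3 array, while the ranges of P8 and P21 met. The mean was 10.90 ± 0.34 at P21 (SD, n = 5) and 9.79 ± 0.20 at P3 (SD, n = 6), a difference of 1.11 ± 0.16 (SE, adjusted p = 7.75e-05), or 2.16-fold. P8 exceeded P3 by 0.67 ± 0.17 (SE, adjusted p = 0.0171). P21 and P8 differed by 0.44 ± 0.18 (SE), which did not pass (adjusted p = 0.112). P8 replicates 5 to 9 read 9.04 to 9.43, below all 4 other P8 arrays. With all 20 arrays the P8 and P3 difference was -0.0057 (adjusted p = 0.989), and that between P21 and P8 passed, at 1.11 (adjusted p = 0.0162).

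Synaptoporin (Synpr), the closest relative of synaptophysin and a protein of only some terminals, went the other way late. On probe set 1368865_at it read 8.52, 7.98, 8.83, 9.09, 8.65 and 8.15 at P3. In P8 replicates 1 to 4 it read 8.70, 10.28, 10.06 and 8.21, and at P21 it read 6.32, 6.49, 5.24, 6.32 and 6.66. All P21 arrays lay below all P3 arrays and below all of P8 replicates 1 to 4. Within P8, replicates 2 and 3 were high while replicates 1 and 4 lay within the range of P3. The mean at P21 was 6.21 ± 0.56 (SD, n = 5), against 8.54 ± 0.42 at P3 (SD, n = 6), a difference of -2.33 ± 0.37 (SE, adjusted p = 0.00016). Against the P8 mean of 9.31 ± 1.02 (SD, n = 4) the difference of P21 was -3.11 ± 0.41 (SE, adjusted p = 0.00018). P8 and P3 differed by 0.77 ± 0.39 (SE), which did not pass (adjusted p = 0.194).

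The second Synpr probe set, 1368864_at, followed the first (Pearson r = 0.943 over the 15 arrays). It averaged 5.41 ± 0.61 at P3, 5.60 ± 1.14 in P8 replicates 1 to 4 and 3.13 ± 0.41 at P21 (SD), and P21 again overlapped neither. The differences were -2.29 ± 0.41 for P21 minus P3 (SE, adjusted p = 0.000434) and -2.47 ± 0.45 for P21 minus P8 (SE, adjusted p = 0.00178). At P21 all its values lay under log2 4, so the size of the fall rests on dim readings there. P8 replicates 2 and 3 were again the high ones, at 6.42 and 6.51, against 5.40 and 4.07 in replicates 1 and 4. P8 replicates 5 to 9 read 6.08 to 7.54 on the first probe set, below the other P8 arrays and overlapping P21. With them included, P21 minus P8 was -1.87 on 1368865_at (adjusted p = 0.024) and -1.64 on 1368864_at (adjusted p = 0.0455).

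Inhibitory neuron markers, too, were lower on average at P21 than at P3. The mean over 7 of them was 6.20 ± 0.40 at P3, 5.77 ± 0.18 in P8 replicates 1 to 4 and 5.18 ± 0.54 at P21 (SD). It ranged from 4.65 to 6.08 at P21 and from 5.83 to 6.95 at P3. Of the 7, 4 lay above log2 4 on all 15 arrays, Gad1 among them, and Slc6a5, the glycine transporter of inhibitory neurons, on none. Within P8 replicates 1 to 4 the marker mean ran from 5.66 to 6.04. Of the 4 markers above log2 4 throughout, Sst ran there from 8.22 to 10.66 and Gad1 from 8.385 to 9.54. Slc32a1 ran from 6.22 to 7.60 and Npy from 6.54 to 7.44. Sst averaged 7.54 at P21 against 9.46 at P3, and the others of these were also lower at P21. The part of inhibitory neurons in the fall of Synpr was not tested.

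Synaptogyrin 1 (Syngr1) was not tested either. Probe set 1387527_at exceeded log2 4 on 4 of the 15 arrays and 1383686_at on 1. The first read 1.00 to 4.35 at P3, 1.85 to 3.23 in P8 replicates 1 to 4 and 2.00 to 4.23 at P21, which overlap almost throughout. In P8 replicates 5 to 9 both were brighter than in the other P8 arrays, at 3.29 to 6.11 and 3.09 to 6.30.

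**Figure D2:**
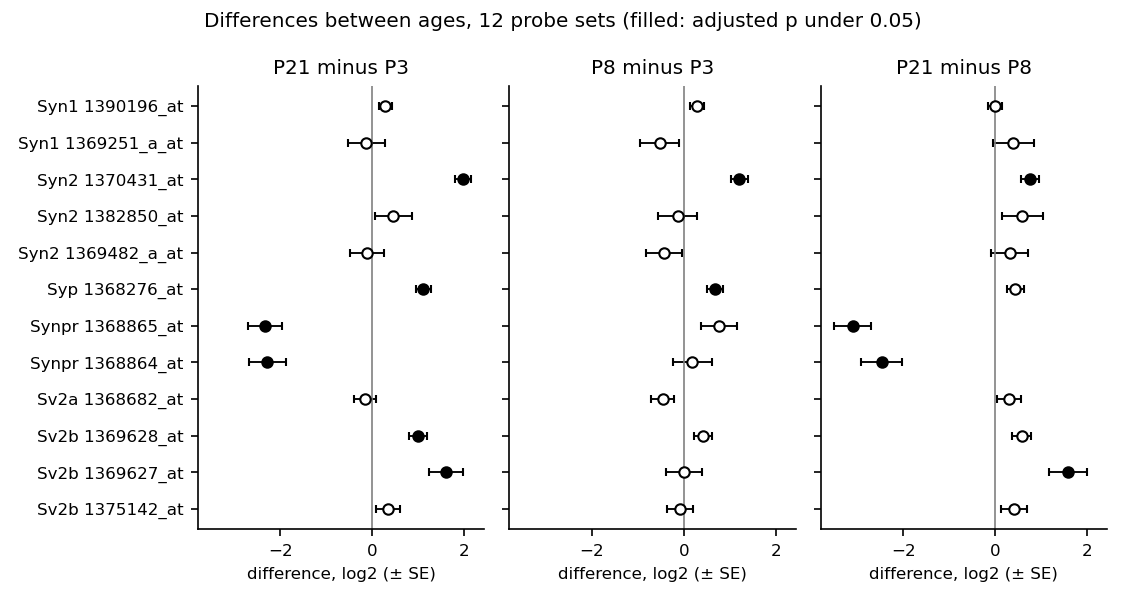
Difference between ages on the log2 scale with its standard error for the 12 tested probe sets, for P21 minus P3, P8 minus P3 and P21 minus P8. Filled points passed limma's adjusted p under 0.05. In the P21 minus P3 panel 1 probe set of Syn2, that of Syp and 2 of Sv2b lie to the right and both of Synpr to the left, at about -2.3.

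Among the SV2 genes only Sv2b passed in these 15 arrays. Probe set 1369628_at read 10.32, 9.54, 9.54, 9.94, 10.0 and 9.83 at P3. It read 10.25, 10.29, 9.96 and 10.64 in P8 replicates 1 to 4, and 11.02, 11.12, 11.04, 10.80 and 10.33 at P21. P21 and P3 did not overlap, though P21 replicate 5 and P3 replicate 1 all but touched. The mean was 10.86 ± 0.32 at P21 (SD, n = 5), against 9.86 ± 0.30 at P3 (SD, n = 6), a difference of 1.00 ± 0.19 (SE, adjusted p = 0.000709). The P8 mean of 10.29 ± 0.28 lay between them and passed against neither, with 0.42 ± 0.20 (SE) for P8 minus P3 (adjusted p = 0.164) and 0.57 ± 0.21 (SE) for P21 minus P8 (adjusted p = 0.074). Between P21 and P8 it passed with the filter set at log2 6 (adjusted p = 0.0467) and with eBayes set to both trend and robust (adjusted p = 0.0408). P8 replicates 5 to 9 read 10.61 to 11.05, as high as the P21 arrays, and with all 20 arrays the P8 and P3 difference passed (0.74, adjusted p = 0.0247).

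The Sv2b probe set 1369627_at put the rise late. It averaged 5.32 ± 0.57 at P3, 5.33 ± 0.70 in P8 replicates 1 to 4 and 6.92 ± 0.73 at P21 (SD). P21 exceeded P3 by 1.60 ± 0.37 (SE, adjusted p = 0.00308) and P8 by 1.59 ± 0.41 (SE, adjusted p = 0.0152), while P8 and P3 differed by 0.012 ± 0.39 (SE, adjusted p = 0.988). The groups overlapped through P3 replicate 1, at 6.44, and P8 replicate 1, at 6.26. The P21 and P8 difference did not pass without P8 replicate 2 (adjusted p = 0.0511) or with array weights (adjusted p = 0.0706). The third, 1375142_at, stayed between 2.63 and 4.39 on all 15 arrays and did not pass in any comparison.

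Sv2a, the SV2 form present at nearly all synapses, did not pass. It read 7.64 to 8.86 at P3, 7.56 to 8.23 in P8 replicates 1 to 4 and 7.36 to 8.48 at P21. P21 and P3 differed by -0.16 ± 0.23 (SE, adjusted p = 0.615), and P8 and P3 by -0.46 ± 0.25 (SE, adjusted p = 0.224). P8 replicates 5 to 9 read only 5.13 to 6.59, under every other array. With all 20 arrays the P8 and P3 difference was therefore -1.56 and passed (adjusted p = 0.0189), as did that between P21 and P8, at 1.39 (adjusted p = 0.0398). Sv2c, the SV2 form of restricted brain regions, exceeded log2 4 on 2 of the 15 arrays and was not tested. It read 2.79 to 3.96 at P3, 3.32 to 4.38 in P8 replicates 1 to 4 and 1.38 to 4.27 at P21, against 3.79 to 6.64 in P8 replicates 5 to 9.

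**Figure D3:**
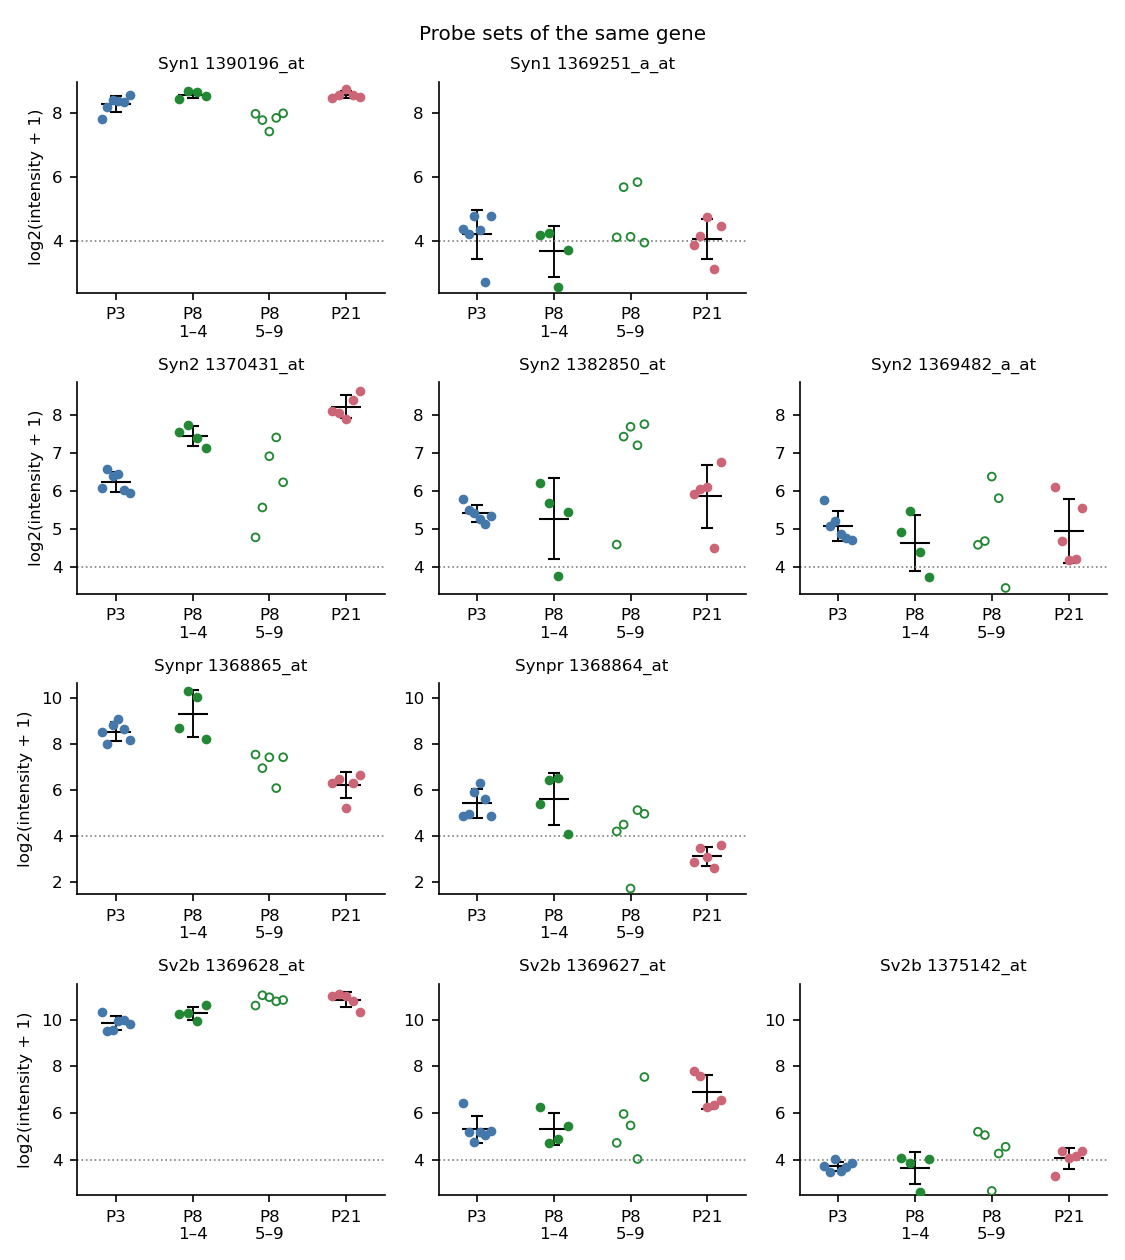
Levels, log2(intensity + 1), on every array for the tested genes with several probe sets (Syn1, Syn2, Synpr, Sv2b), each row sharing an axis. Points are arrays, bars are mean ± SD, open circles are P8 replicates 5 to 9 and the dotted line is log2 4. Both Synpr probe sets fall at P21, while 1 of 3 Syn2 probe sets and 2 of 3 Sv2b probe sets rise.

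Whether related genes moved apart was asked within each array, by the difference between 2 genes, which removes what the probe sets of an array share. There were 9 pairs inside the 3 families and 3 comparisons, 27 exact two-sided permutation tests in all, adjusted together. Between P21 and P3, 5 of 9 pairs passed, between P8 and P3 1, and between P21 and P8 4.

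Syp minus Synpr was 4.69 ± 0.67 at P21, against 1.25 ± 0.39 at P3 (SD), so that the balance moved by 3.44 towards Syp (exact permutation, adjusted p = 0.0292). All 5 P21 arrays, at 3.83 to 5.60, lay above all 6 P3 arrays, at 0.80 to 1.80. Against P8 replicates 1 to 4, which spread from 0.20 to 2.41, the shift at P21 was 3.54 (exact permutation, adjusted p = 0.0417).

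Syn1 minus Syn2, with Syn2 read by 1370431_at alone, fell at each step. It was 2.05 ± 0.38 at P3, 1.14 ± 0.24 in P8 replicates 1 to 4 and 0.36 ± 0.38 at P21 (SD). The shifts were -1.69 for P21 against P3 (exact permutation, adjusted p = 0.0292), -0.91 for P8 against P3 (exact permutation, adjusted p = 0.0417) and -0.77 for P21 against P8 (exact permutation, adjusted p = 0.0429). No 2 ages overlapped. The other Syn2 probe sets were not paired, and their means were lower in P8 replicates 1 to 4 than at P3. They were 5.28 against 5.41 for 1382850_at and 4.64 against 5.07 for 1369482_a_at, so the shift belongs to 1370431_at.

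Sv2a minus Sv2b was -2.72 ± 0.60 at P21, against -1.56 ± 0.50 at P3 (SD), a shift of -1.16 towards Sv2b (exact permutation, adjusted p = 0.0417). These ages overlapped. The other pairs that passed, Synpr minus Syngr1 and Sv2b minus Sv2c in the 2 comparisons with P21, each contain a gene whose probe sets were too dim to be tested. With so few arrays the adjusted values sit close to the threshold, and leaving out 1 array left between 0 and 4 pairs passing for P21 against P3. With quantile normalization Sv2a minus Sv2b for P21 against P3, and both named pairs for P21 against P8, had an adjusted p of 0.0536 (exact permutation). Syn1 minus Syn2 for P8 against P3 missed the threshold with all 20 arrays (exact permutation, adjusted p = 0.206).

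**Figure D4:**
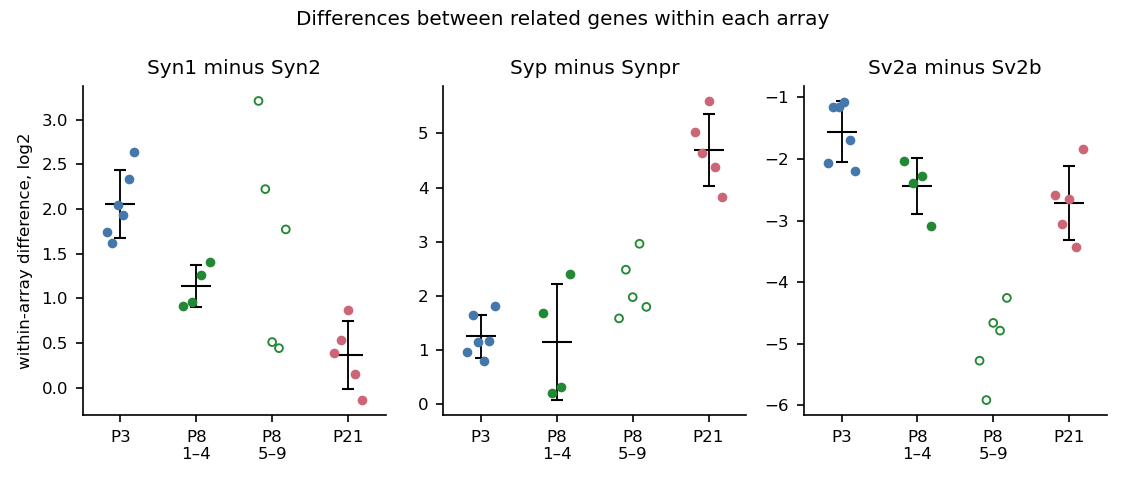
Within-array difference between 2 related genes on the log2 scale, for Syn1 minus Syn2, Syp minus Synpr and Sv2a minus Sv2b, on every array by age. Points are arrays, bars are mean ± SD and open circles are P8 replicates 5 to 9. Syp minus Synpr lies between 3.83 and 5.60 at P21, above the P3 values of 0.80 to 1.80, and Syn1 minus Syn2 is lowest at P21.

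Markers of another cell type were higher at the later ages on the same arrays. The mean over 11 oligodendrocyte markers was 5.00 ± 0.48 at P3, 7.59 ± 0.59 in P8 replicates 1 to 4 and 8.57 ± 0.32 at P21 (SD). It ran from 4.45 to 5.65 at P3, from 6.91 to 8.32 in P8 replicates 1 to 4 and from 8.13 to 8.98 at P21, so that P3 overlapped neither later age. Of the 11 markers 4 lay above log2 4 on all 15 arrays and 0 on none, and Mbp averaged 11.3 at P21 against 8.10 at P3. With this mean as a covariate, 0 of the 12 probe sets passed for P21 against P3 or P8 against P3, where over all 15650 probe sets 49 and 0 passed. The estimate for P21 against P3 was then 0.83 for Syn2 1370431_at, 1.46 for Syp, 2.06 for Sv2b 1369628_at and -4.30 for Synpr 1368865_at. Because P3 overlapped neither later age in this mean, these fits can hardly tell it from age. No conclusion is drawn from the lost calls. Between P21 and P8 both Synpr probe sets still passed with the covariate, the first at -3.64 (adjusted p = 0.00108), and so did Sv2b 1369627_at (adjusted p = 0.0265). Sv2b 1369628_at, which had not passed before, did so at 0.86 (adjusted p = 0.0497), and Syn2 1370431_at no longer passed, at 0.45 (adjusted p = 0.243). P8 replicates 1 to 4 and P21 met in this mean only between 8.13 and 8.32, so it is poorly separated from age here too. No conclusion is drawn from calls kept, gained or lost between P21 and P8.

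For the GAPDH control the 3′ probe set minus the 5′ one, a difference that grows as RNA is shortened, was 2.91 ± 0.27 at P3, 3.27 ± 0.42 in P8 replicates 1 to 4 and 3.99 ± 0.66 at P21 (SD). The same difference for beta-actin went the other way, at 4.70 ± 0.30 at P3, 4.29 ± 0.19 in P8 replicates 1 to 4 and 4.32 ± 0.69 at P21 (SD). With the GAPDH difference as a covariate 6, 2 and 4 member probe sets passed for P21 against P3, P8 against P3 and P21 against P8, the counts without it. Over all 15650 probe sets 3404, 1913 and 2050 then passed, against 6114, 2435 and 2619 without it. In the related lists described below fewer genes then passed for P21 against P3. The proton pump went from 8 to 3, other vesicle proteins from 12 to 5, kinases and phosphatases from 5 to 3 and family relatives from 1 to 0. The mean over 13 bushy cell markers was higher with age too, at 10.17 ± 0.17 at P21 and 7.73 ± 0.22 at P3 (SD). Its members differed widely. Pvalb averaged 9.89 at P21 against 3.61 at P3, and Slc17a6 11.28 against 11.13. Gria4, at 7.83 against 8.10, and Hcn2, at 6.64 against 6.71, were lower at P21, and the others were higher.

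Genes whose levels ran most like each member over the 15 arrays were found by Pearson r, as a description across arrays that share the age groups. Syp ran closest with Mcoln1, a lysosomal cation channel (r = 0.981), Ap2m1, a subunit of the clathrin adaptor AP-2 (r = 0.971), and Mt3, a brain metallothionein (r = 0.970). Syn2 ran closest with Mmp24 (r = 0.979), Lysmd2 (r = 0.973) and Epb41l1 (r = 0.962). Synpr ran closest with Nlgn1, a synaptic adhesion protein (r = 0.960), Rab15 (r = 0.956) and Mal2 (r = 0.948). For Sv2b the closest were Tob2 (r = 0.949), Nfyc (r = 0.941) and Ccpg1 (r = 0.939). The genes nearest to Sv2a (Tmem167a, r = 0.865) and Syn1 (Entpd6, r = 0.916) followed less closely.

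Related genes were described by 4 lists. Of the family relatives 5 were tested. Syngr2, the synaptogyrin found widely outside neurons, was higher by 0.81 ± 0.26 (SE, adjusted p = 0.0234), at 5.87 ± 0.67 at P21 and 5.07 ± 0.33 at P3 (SD). It did not pass without P21 replicate 3, P21 replicate 4 or P3 replicate 1 (adjusted p = 0.0611, 0.0572 and 0.0524), nor with the GAPDH covariate (adjusted p = 0.562). That last fit can hardly tell the covariate from age. Syngr3, a neuronal synaptogyrin, peaked at P8: it was above P3 by 1.08 ± 0.18 (SE, adjusted p = 0.00175), and P21 was below P8 by 1.37 on the log2 scale (adjusted p = 0.000261). Neither passed with all 20 arrays (adjusted p = 0.375 and 0.645). Svop, an SV2-like vesicle protein, was lower at P21 than in P8 replicates 1 to 4 by 1.05 ± 0.33 (SE, adjusted p = 0.043), a call lost in 11 of the 15 fits that left out 1 array. Sypl1 and Sypl2, the relatives of synaptophysin outside synapses, differed by 0.22 ± 0.18 and -0.41 ± 0.21 between P21 and P3 (SE) and did not pass.

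Among 23 other vesicle proteins, 6 passed upwards and 6 downwards for P21 against P3, beside 20.1% and 19.0% of all probe sets. Without P21 replicate 2 or P21 replicate 3 these counts were 3 and 4, and with all 20 arrays 1 and 3. Vamp1, a synaptobrevin, averaged 11.5 ± 0.41 at P21 and 9.08 ± 0.29 at P3 (SD), a difference of 2.44 ± 0.19 (SE, adjusted p = 2.57e-07). Syt5, a synaptotagmin, averaged 4.22 ± 0.49 at P21 and 6.58 ± 0.28 at P3 (SD, adjusted p = 1.11e-06). Rab3d, a small GTPase of secretory vesicles, averaged 1.59 ± 0.38 at P21 and 5.44 ± 0.57 at P3 (SD, adjusted p = 1.07e-05). Its level at P21 is under log2 4, so the size of its difference rests on dim readings. In this list 3 passed upwards and 1 downwards for P8 against P3, beside 7.81% and 7.75% of all probe sets. For P21 against P8, 3 and 4 passed, beside 8.31% and 8.42%. Without P8 replicate 3 the counts were 2 and 0 for P8 against P3, and 0 and 4 for P21 against P8.

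Of 16 genes of the proton pump that energises transmitter uptake into vesicles, and also acidifies lysosomes, 8 passed upwards and 0 downwards for P21 against P3, beside 20.1% and 19.0% of all probe sets. The median difference was 0.39, against 0.024 over all probe sets. Between P8 and P3, 7 were higher and 0 lower, beside 7.81% and 7.75% of all probe sets, or 4 and 0 without P8 replicate 2. Between P21 and P8 0 of the 16 passed, beside 16.7% of all probe sets. Atp6v1b2 was higher at P21 than at P3 by 1.13 ± 0.14 (SE, adjusted p = 1.57e-05), Atp6v0b by 0.95 ± 0.14 (SE, adjusted p = 0.000105) and Atp6v1f by 1.12 ± 0.22 (SE, adjusted p = 0.00082). With all 20 arrays this timing was not seen: 0 were higher and 1 lower for P8 against P3, and 3 were higher and 0 lower for P21 against P8. For P21 against P3, 1 of the 16 passed with all 20 arrays. With the oligodendrocyte mean as a covariate 0 did, in a fit that can hardly tell that mean from age.

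Of 18 kinases and phosphatases that act on synapsins, 3 passed upwards and 2 downwards for P21 against P3, beside 20.1% and 19.0% of all probe sets. Leaving out 1 array gave 3 to 7 in all, with 3 for each of P3 replicates 1 and 5 and P21 replicates 2, 4 and 5. For P8 against P3 the counts were 4 and 1, beside 7.81% and 7.75% of all probe sets. They were 0 and 1 without P8 replicate 2 or without P8 replicate 3. Without P3 replicate 1, 2, 4 or 5 the total was 2 or 3. For P21 against P8 the counts were 1 and 1, beside 8.31% and 8.42% of all probe sets, or 1 and 4 without P8 replicate 4. Prkar2b, a regulatory subunit of protein kinase A, averaged 7.39 ± 0.33 at P21 and 10.3 ± 0.13 at P3 (SD), a difference of -2.92 ± 0.17 (SE, adjusted p = 2.39e-08). The catalytic subunit Prkaca was higher by 1.07 ± 0.13 (SE, adjusted p = 1.57e-05). Camk1, a calcium-dependent kinase, was lower, with a difference of -0.88 ± 0.21 (SE, adjusted p = 0.00424). Apart from Rab3d and Prkar2b, the named genes of these lists did not pass for P21 against P3 with the oligodendrocyte mean as a covariate. That fit can hardly tell the mean from age.

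**Figure D5:**
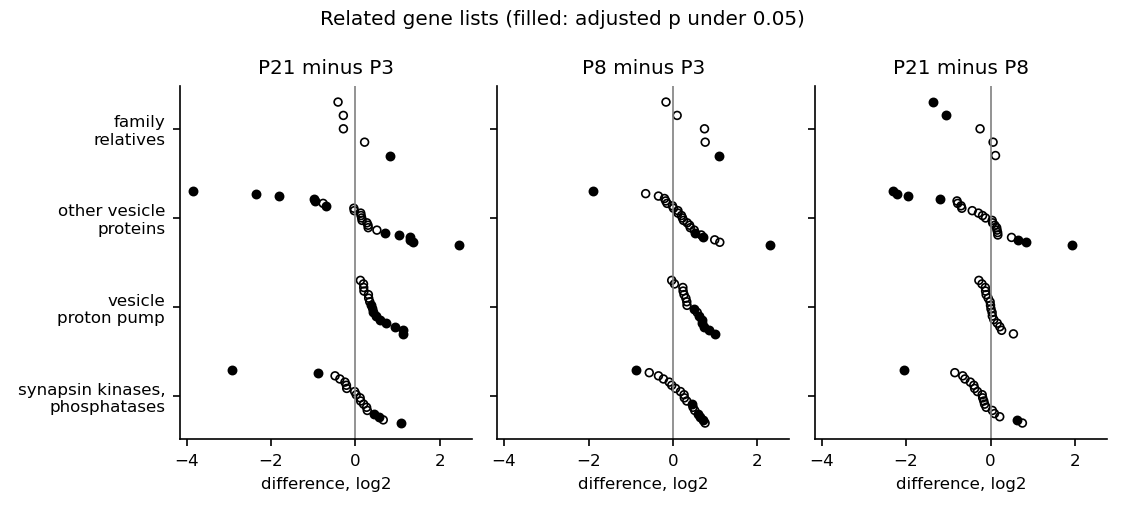
Difference on the log2 scale for every tested gene of 4 related lists, for P21 minus P3, P8 minus P3 and P21 minus P8. Each point is 1 gene and filled points passed limma's adjusted p under 0.05. The 8 filled points of the proton pump in the P21 minus P3 panel all lie to the right, while the other vesicle proteins have 6 on each side.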

How the data were processed

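Laser-dissected globular bushy cells were hybridised to 20 arrays, 1 per animal. The authors deposited 1 linear intensity per probe set and array. Per the submitters' processing notes GCRMA was used, but GCRMA returns log2 values, and no source used here says which tool made these linear ones. Each array's mean without its lowest and highest 2% of intensities came to 100.0, as after scaling each array as a whole, and no further normalization was added. Precision is limited by the number of arrays, and no litters are named in the labels.

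Probe sets were named through the platform annotation, and 20832 with exactly 1 gene were used (436 had several and 9831 are unnamed here). Symbols were updated through a RefSeq gene table of assembly GRCr8. Values were analysed as log2(intensity + 1). Probe sets above log2 4 on at least 5 of 15 arrays were tested with limma 3.58.1 in R 4.3.3 (lmFit, eBayes, the 3 ages in 1 fit) with Benjamini-Hochberg adjustment over 15650 probe sets and calls under 0.05. Every adjusted p in the text is from limma unless an exact permutation test is named. The tests were tried on simulated data. A gene of a list, and each member in the pairs and likeness measures, was taken from its brightest probe set by mean over the 15 arrays. The members and lists were chosen with earlier results of these data known. All members are named, with all 5 family relatives and the 3 genes of smallest p for P21 against P3 from each other list. The 3 most similar genes are named for Syp, Syn2, Synpr and Sv2b, and the nearest 1 for Sv2a and Syn1. Those of Syn3, Syngr1 and Sv2c, too dim to be tested, are not named.

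Same-numbered arrays of different ages deviated together at most weakly: 0 of 13 pairs correlated over 0.1 (-0.060 to 0.078). In 6 of them the array of the same number correlated highest, among them every P8 and P3 pair (0.027 to 0.078). Alternatives were all 20 arrays, other filters, pseudocounts and normalizations, other variance models, the ages compared alone, 1 probe set per gene, the replicate number as a block, 2 covariates and each array left out. The same alternatives for the lists were added after seeing the data. Promoter sequences are from RefSeq, assembly GRCr8.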

Additional observations from a re-analysis of the deposited data

Results flagged for a closer look

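Of 64 sets of arrays (16 probe sets in 4 sets each) 8 held 1 array far from the others of its set, where chance flags about 1 in 20. At P21, Synpr 1368865_at read 5.24 in replicate 3, with the others at 6.32 to 6.66, and Sv2b 1375142_at read 3.31 in replicate 1, with the others at 4.09 to 4.39. In P8 replicates 1 to 4, Sv2b 1375142_at read 2.63 in replicate 3, with the others at 3.86 to 4.09. At P3, Sv2b 1369627_at read 6.44 in replicate 1, with the others at 4.77 to 5.24, and Syn1 1369251_a_at read 2.72 in replicate 5, with the others at 4.20 to 4.79. Within P8 replicates 5 to 9, Synpr 1368864_at read 1.72 in replicate 7 (others 4.20 to 5.13), Syn2 1382850_at read 4.59 in replicate 5 (others 7.21 to 7.77) and Sv2c 1387569_at read 3.79 in replicate 9 (others 5.88 to 6.64). The causes were not tested.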

How the results depend on the processing

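The 6 member probe sets that passed for P21 against P3, and the 2 for P8 against P3, each passed in every fit that left out 1 array, while for P21 against P8 those fits gave 3 to 5. Pairs ranged from 0 to 4 for P21 against P3, 0 to 1 for P8 against P3 and 0 to 4 for P21 against P8. Leaving out an array of a compared age also allows fewer regroupings. With the oligodendrocyte mean as a covariate 49 probe sets passed in all for P21 against P3 (0 members) and 0 for P8 against P3 (0 members). In these comparisons that mean can hardly be told from age. With the GAPDH covariate, in which P3 and P21 did not overlap, 3404 passed in all for P21 against P3. With all 20 arrays the totals were 2184 for P21 against P3 and 4489 for P8 against P3, with 7 members for P21 against P8 and 2 pairs for P8 against P3. Fitting P21 and P8 alone gave 1349. Taking 1 probe set per gene gave 2 members for P21 against P8. Quantile normalization gave 2 pairs for P21 against P3 and 0 for P21 against P8, and a pseudocount of 16 gave 3 pairs for P8 against P3. The replicate block gave 5393 probe sets for P21 against P3, 1306 for P8 against P3 and 1886 for P21 against P8. Of the members 6, 1 and 3 passed. The block ended the calls of Syp for P8 against P3 (adjusted p = 0.0833) and of Syn2 for P21 against P8 (adjusted p = 0.0553). It gave 5 proton pump genes for P21 against P3 and 3 for P8 against P3. The causes of these shifts were not tested.

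Apart from Syp for P8 against P3 with all 20 arrays (-0.0057), every value that changed sign had not passed to begin with. With all 20 arrays, P8 against P3 gave -0.14 for Syn1 1390196_at, 0.067 for Syn1 1369251_a_at, 0.79 for Syn2 1382850_at, -0.47 and -0.64 for Synpr 1368865_at and 1368864_at, and 0.31 for Sv2b 1375142_at. Its pair shifts were 0.46 for Syp minus Synpr, -1.23 for Syp minus Syngr1, -1.69 for Synpr minus Syngr1 and -0.73 for Sv2b minus Sv2c. P21 against P8 gave 0.42 for Syn1 1390196_at, -0.20 for Syn1 1369251_a_at, -0.33 for Syn2 1382850_at, 1.13 for Sv2a minus Sv2b and 1.43 for Syp minus Syngr1. Array weights gave 0.061 for Syn1 1390196_at (P21 against P8), 0.047 for Syn1 1369251_a_at (P21 against P3), and for P8 against P3 0.35 for Syn2 1382850_at, 0.23 for Sv2b 1375142_at and -0.37 for Synpr 1368864_at. The GAPDH covariate gave, for P21 against P3, 0.29 for Sv2a, 0.73 for Syn2 1369482_a_at, 0.63 for Syn1 1369251_a_at and -0.10 for Sypl1, and for P8 against P3 0.18 for Syn2 1382850_at. The oligodendrocyte covariate gave -0.52 for Sypl1 (P21 against P3) and, for P8 against P3, -0.65 and -1.47 for Synpr 1368865_at and 1368864_at. A pseudocount of 16 gave -0.056 for Sv2a minus Sv2c and 0.0043 for Syn1 minus Syn3 (P21 against P3), 0.13 for Syn1 minus Syn3 (P8 against P3) and 0.078 for Syp minus Syngr1 (P21 against P8). Quantile normalization gave -0.20 for Sv2b minus Sv2c and 0.078 for Sv2b 1375142_at (P8 against P3), and 0.0039 for Syn1 1390196_at (P21 against P8). The replicate block gave -0.080 for Sv2b 1369627_at (P8 against P3).

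Leaving out 1 array at a time, values that changed sign ranged, for P21 against P3, from -0.30 to 0.032 for Sv2a, -0.43 to 0.11 for Syn1 1369251_a_at, -0.41 to 0.070 for Syn2 1369482_a_at, -0.22 to 0.52 for Sv2a minus Sv2c and -0.23 to 0.49 for Syp minus Syngr1. For P21 against P8 Syn1 1390196_at ranged from -0.053 to 0.027. For P8 against P3 they ranged from -0.30 to 0.24 for Sv2b 1369627_at, -0.23 to 0.26 for Sv2b 1375142_at, -0.45 to 0.37 for Syn2 1382850_at, -0.12 to 0.70 for Synpr 1368864_at, -0.091 to 0.17 for Sv2b minus Sv2c, -0.55 to 0.059 for Syn1 minus Syn3 and -0.52 to 0.22 for Syp minus Synpr. Signal near background limits Syn3, Syngr1, Sv2c and the dim probe sets of Syn1 and Sv2b.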
